A study of Mus musculus with 6 samples.

Results

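The genes described here encode the machinery that receives glutamate at excitatory synapses. They are 4 AMPA, 5 kainate and 6 NMDA receptor subunits, 1 delta receptor, 7 metabotropic receptors, 2 vesicular glutamate transporters and 4 postsynaptic scaffold proteins. Members were all non-control array probes whose gene name in the scanner files was one of these 29 genes. The rule took 75 of 56605 probes and used no measured value. Each probe is 60 bases long.

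RNA from the brainstem and cerebellum of mice aged 16 weeks was measured on single-colour (Cy3) Agilent arrays, with 1 array per sample. The series compares the brains of mice labelled MSA transgenic with those of wild-type mice. There were 3 wild-type and 3 transgenic samples, and both genotypes carry the same mixed strain label (C57BL/6, 129 and C3H). The labels name neither the transgene nor the promoter or cell type that drives it, and give no sex. They also do not state that the samples are separate animals, so p-values measure only the spread between these samples.

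AMPA, kainate and NMDA receptors are ion channels built from several subunits and opened by glutamate. Metabotropic receptors act through G proteins, some on the presynaptic side and some on the postsynaptic side or on glia. Vesicular transporters load glutamate into synaptic vesicles, and scaffold proteins of the postsynaptic density hold the receptors opposite the release site. In the cerebellum these proteins serve the inputs of mossy, parallel and climbing fibres onto granule and Purkinje cells, and in the brainstem they serve most fast excitatory inputs.

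The probes decide which transcript end is read, so those on which the differences between probes turn are printed here 5′ to 3′ in the sense of the mRNA, with their mm9 positions and strands as the scanner files give them. A range longer than 60 bases includes an intron. All of these lie in coding sequence. The Dlg4 probes cover a PDZ domain and the SH3 domain. The Homer1 probe lies in the EVH1 domain, which short and long Homer1 forms share. The Shank2 probe lies in the SAM domain, through which Shank proteins assemble into sheets. The Gria1 probe lies in the ligand-binding region, and the Grik1 probe spans an exon junction.
Gria1 ligand-binding probe, chr11:57102852-57102911 (+): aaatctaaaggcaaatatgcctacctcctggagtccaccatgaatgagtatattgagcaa
Grik1 junction probe, chr16:87896544-87914404 (-): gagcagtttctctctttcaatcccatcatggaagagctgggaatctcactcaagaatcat
Dlg4 PDZ probe, chr11:69844125-69844685 (+): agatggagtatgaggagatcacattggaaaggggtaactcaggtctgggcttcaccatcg
Dlg4 SH3 probe, chr11:69853342-69854879 (+): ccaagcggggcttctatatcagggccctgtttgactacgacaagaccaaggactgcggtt
Homer1 EVH1 probe, chr13:94116595-94116654 (+): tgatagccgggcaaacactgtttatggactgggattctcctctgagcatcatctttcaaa
Shank2 SAM probe, chr7:151606944-151607003 (+): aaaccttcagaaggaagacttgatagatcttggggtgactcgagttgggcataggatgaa

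Levels below are log2 signals relative to the 75th percentile of the same array, and differences are transgenic minus wild type on that log2 scale. A level is set only against other samples of the same probe, never against another probe. A probe was tested when every array of 1 genotype or of both showed it well above background, and a gene is represented by its tested probe with the highest mean level. The test was limma with Benjamini-Hochberg adjustment over all tested genes or probes, and a gene or probe was called at an adjusted p under 0.05. In whole tissue, fewer cells of a type and less RNA per cell cannot be told apart.

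The arrays were not alike. Slide 1 held wild-type replicate 1 and no other array of the series, while slide 2 held the remaining 5. The slide 1 array had a 75th percentile of 405.7 intensity units, against 535.0 to 609.2 for the slide 2 arrays. It showed 64.8% of probes well above background, where the slide 2 arrays showed 68.6 to 71.7%. Correlations were taken over the tested genes, with 1 probe per gene. They were 0.991 to 0.996 between slide 2 arrays and 0.974 to 0.978 between these and the slide 1 array. At 40 of 64 tested member probes (62.5%) wild-type replicate 1 lay outside the range of all 5 others, above it at 29 and below it at 11. Over all tested probes it was above the 5 others at 34.9% and below them at 29.8%. Results are therefore also given with slide as a block, which with 1 array on slide 1 bases the difference on the arrays of slide 2.

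Expression of the glutamate receptor and scaffold genes did not differ detectably between genotypes. Of the 29 genes, 28 could be tested, and limma called 0 of them, where it called 0.0441% of all 24933 tested genes. The smallest adjusted p was 0.817. At an unadjusted p under 0.05 the count was also 0 of 28, against 5.86% of all tested genes, and the smallest unadjusted limma p was 0.0946, for Slc17a8. The differences lay on both sides of 0, with 14 genes above and 14 below (50.1% of all tested genes lay below 0), and their median was -0.011 against -0.0005 for all tested genes. Groups did not overlap for 4 of 28 genes, where 14.9% of all tested genes had separated groups. The median absolute difference of the members was 0.084, against 0.126 for all tested genes.

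The arrays were precise enough to bound most of these differences at the 1 probe that represents each gene. The median half-width of the 95% interval of a member gene's difference was 0.295, with a range of 0.186 to 0.793. For 23 of 28 genes the whole interval lay within a 1.5-fold change in either direction, which held for 61.3% of all tested genes, and for 27 it lay within 2-fold. The exception at 2-fold was Grik1. The other genes whose interval passed 1.5-fold were Gria4, Grm4, Slc17a8 and Shank2. These bounds do not extend to the other probes of a gene, some of which had wider intervals. An example is a Grin1 probe with a 95% interval of -0.74 to 0.42. With slide as a block limma again called 0 of 28 genes, where it called 0.0281% of all tested genes, and put 0 of 28 at an unadjusted p under 0.05, where 8.80% of all tested genes passed. The smallest adjusted p was 0.662 and the median difference was -0.008. The sign turned for 6 of 28 genes (Gria4, Grm8, Slc17a6, Homer1, Shank1 and Shank2).

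**Figure D1:**
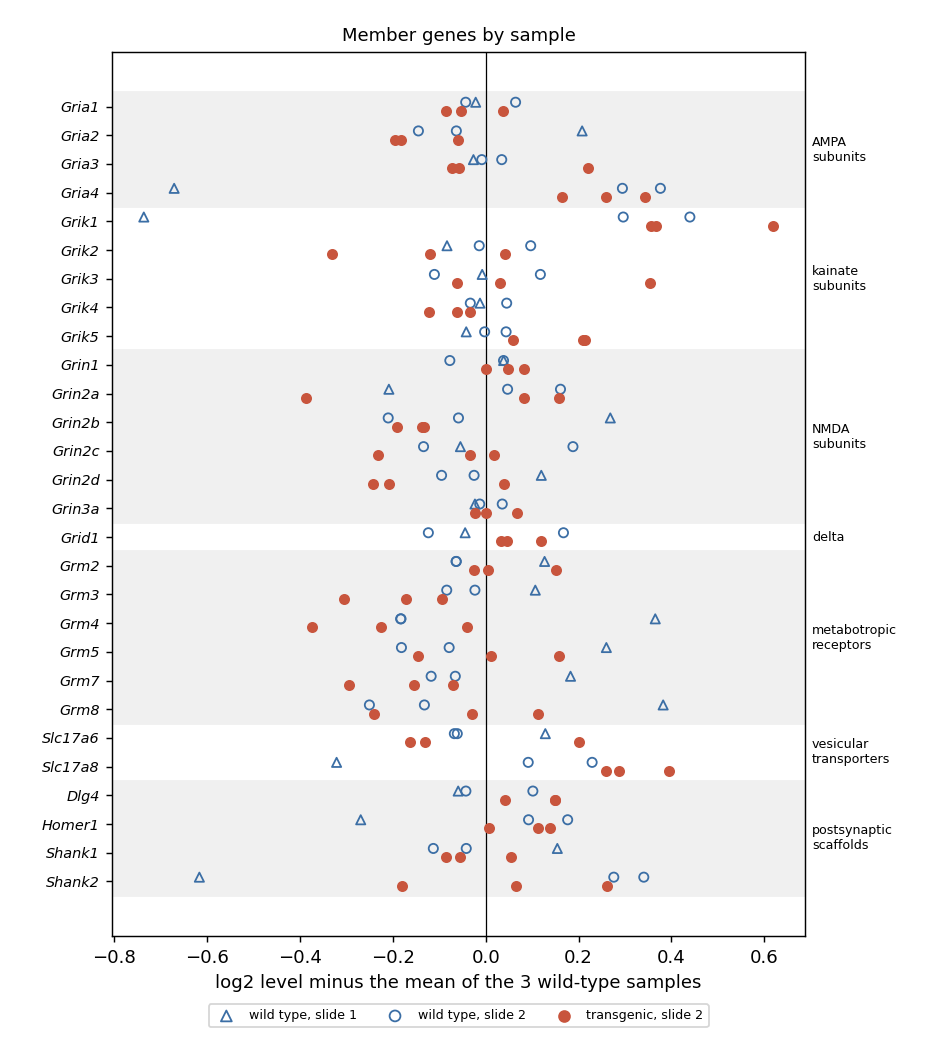
Each row is 1 member gene and each point 1 sample; the horizontal axis is the log2 level minus the mean of the 3 wild-type samples, triangles are wild-type replicate 1 on slide 1, open circles the other wild-type samples and filled circles the transgenic samples. Groups are separated in 4 of 28 rows (Grik4, Grik5, Grm3 and Slc17a8), and the triangle stands far to the left in the rows of Gria4, Grik1 and Shank2.

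Among the AMPA receptor subunits, which carry most fast excitatory transmission, 2 of 4 had higher and 2 had lower means in transgenic samples, and 0 were called. Slide as a block left 1 above and 3 below 0. Gria1 is abundant in Bergmann glia of the cerebellum. Its levels were 4.57, 4.66 and 4.55 in the wild-type samples and 4.63, 4.51 and 4.54 in the transgenic samples. The groups overlapped, and the difference was -0.03 ± 0.08 (SE, n = 3 and 3, 95% interval -0.23 to 0.17). Gria2 encodes the subunit that makes the channel impermeable to calcium. Its levels were 3.74, 3.47 and 3.39 in wild type and 3.48, 3.34 and 3.35 in transgenic samples. Only wild-type replicate 1 stood above the transgenic range, and the difference of -0.15 ± 0.12 was -0.04 with slide as a block. Gria3 differed by 0.03 ± 0.11 at its most 3′ probe. The other Gria3 probes, 5′ to 3′, differed by -0.32 ± 0.20 and -0.21 ± 0.18 with overlapping groups, or -0.39 and -0.02 with slide as a block. Averaged over all tested Gria3 probes the difference was -0.17. Gria4, a subunit of cerebellar granule cells and Bergmann glia, differed by 0.26 ± 0.29, with levels of 2.48, 3.53 and 3.44 in wild type against 3.32 to 3.49 in transgenic samples. The low wild-type value was that of the array on slide 1, and with slide as a block the difference was -0.08.

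Of the 5 kainate receptor subunits, 3 lay above and 2 below 0, and 0 were called. Grik1 had the largest difference of all members, 0.45 ± 0.32, or 1.36-fold with a 95% interval of 0.787 to 2.36-fold. Its levels were 1.59, 2.77 and 2.63 in wild type and 2.70, 2.69 and 2.95 in transgenic samples. The groups overlapped, the array on slide 1 alone was low, and the difference with slide as a block was 0.08. The probe behind these values is annotated as a retina cDNA. Averaged over all tested Grik1 probes the difference was 0.02. The other Grik1 probes, 5′ to 3′, differed by -0.15 ± 0.12, -0.16 ± 0.11, -0.24 ± 0.27 and 0.21 ± 0.16. Grik5 is a high-affinity subunit that assembles with Grik1, Grik2 or Grik3. Levels of Grik5 were 0.87, 0.91 and 0.96 in wild type and 1.12, 0.97 and 1.13 in transgenic samples. All 3 transgenic samples were above all wild-type samples, by as little as 0.01, and the difference was 0.16 ± 0.08 (limma adjusted p = 0.817), or 0.14 with slide as a block. Grik4, the other high-affinity subunit, differed by -0.07 ± 0.08. Its groups also did not overlap, with the transgenic samples below, although the nearest samples were both at 1.61. Grik2 and Grik3 differed by -0.14 ± 0.12 and 0.11 ± 0.14.

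NMDA receptors require coincident glutamate and depolarisation and admit calcium. Of their 6 subunit genes, 2 lay above and 4 below 0, with differences between -0.15 and 0.04, and 0 were called. Grin1 encodes the subunit that every NMDA receptor contains. Its levels were 1.62, 1.50 and 1.62 in wild type and 1.58, 1.66 and 1.63 in transgenic samples. They overlapped, and the difference of 0.04 ± 0.08 had a 95% interval of -0.15 to 0.24, one of the narrower ones among the members. Grin2b, the subunit prominent before maturity, had levels of -1.59, -2.07 and -1.92 in wild type and -2.05, -2.00 and -1.99 in transgenic samples. Here too the wild-type array on slide 1 was highest, and the difference of -0.15 ± 0.14 was -0.02 with slide as a block. Grin2d is a subunit of brainstem and diencephalic neurons. Levels of Grin2d were 1.80, 1.59 and 1.66 in wild type and 1.44, 1.48 and 1.72 in transgenic samples, and the difference was -0.14 ± 0.11 with overlapping groups, or -0.08 with slide as a block. Grin2a, Grin2c (the subunit typical of mature granule cells) and Grin3a differed by -0.05 ± 0.18, -0.08 ± 0.12 and 0.02 ± 0.08. For Grin2a the difference with slide as a block was -0.15. The Grin2a probes 3′ of that one differed by -0.18 ± 0.19 and -0.28 ± 0.15, with overlapping groups. The other Grin2c probe differed by -0.22 ± 0.11, with all transgenic samples below all wild-type samples (limma adjusted p = 0.843). With slide as a block these probes differed by -0.03, -0.15 and -0.17. Grid1, a delta receptor that binds cerebellins rather than acting as a usual glutamate channel, differed by 0.07 ± 0.10.

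**Figure D2:**
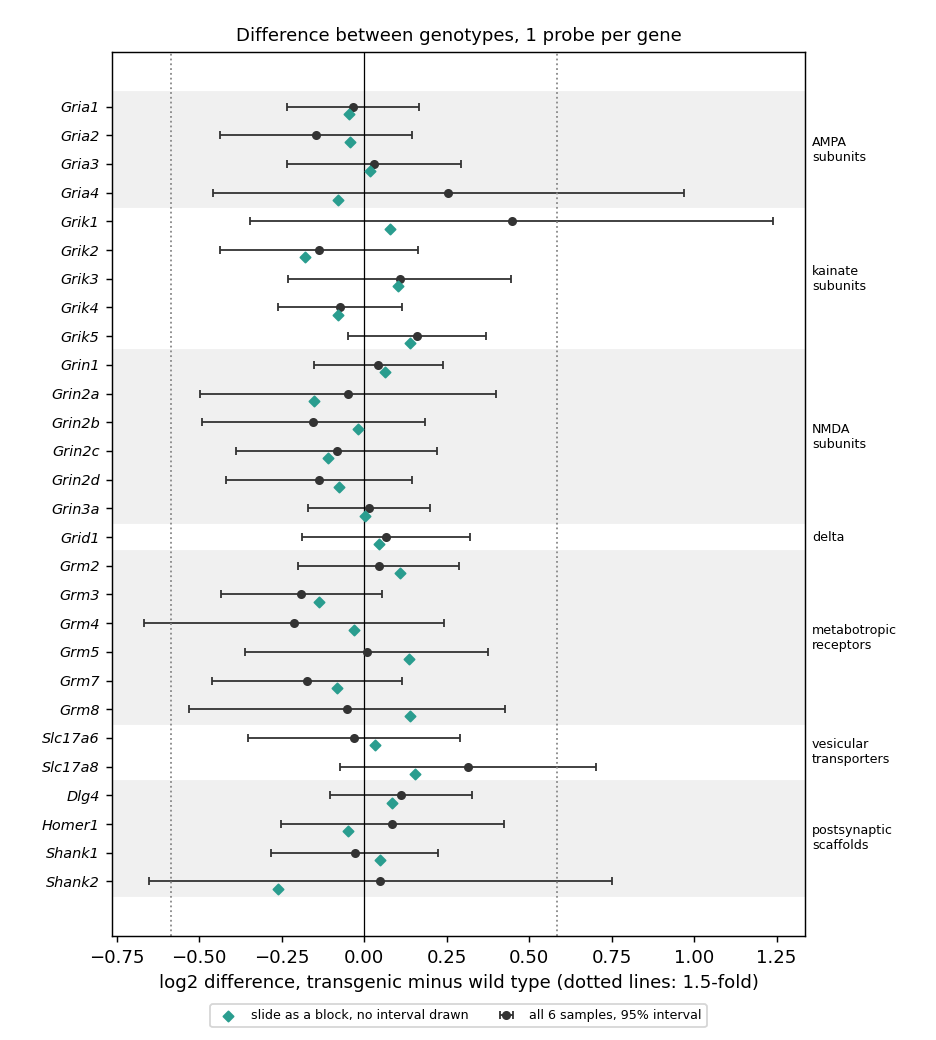
Log2 difference between transgenic and wild-type samples for the 28 tested member genes, with 1 probe per gene. Circles and bars are the difference over all 6 samples with its 95% interval, diamonds the difference with slide as a block, and dotted lines mark 1.5-fold; every interval includes 0, and circle and diamond lie farthest apart for Grik1, Gria4 and Shank2.

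The 6 tested metabotropic receptors had a median difference of -0.113, with 2 above and 4 below 0 and 0 called. Blocking on slide gave 3 above and 3 below 0 and a median of 0.039. Grm5 couples to phospholipase C and binds Homer proteins. Its levels were 1.58, 1.24 and 1.14 in wild type and 1.18, 1.33 and 1.48 in transgenic samples. The groups covered nearly the same range, and the difference was 0.01 ± 0.15, or 0.14 with slide as a block. Grm3, a receptor found on astrocytes as well as neurons, had levels of 0.13, 0.00 and -0.06 in wild type and -0.28, -0.15 and -0.07 in transgenic samples. The groups were separated by about 0.01, and the difference was -0.19 ± 0.10 (limma adjusted p = 0.817), or -0.14 with slide as a block. Grm4 is the presynaptic receptor of parallel fibres. Levels of Grm4 were 0.25, -0.30 and -0.30 in wild type and -0.49, -0.15 and -0.34 in transgenic samples. The one high wild-type value came from slide 1, and the difference of -0.21 ± 0.18 was -0.03 with slide as a block. The other Grm4 probe, which lies 5′ of it, differed by -0.36 ± 0.18 with overlapping groups, or -0.28 with slide as a block. Grm7, another presynaptic receptor, had levels of 1.39, 1.09 and 1.14 in wild type and 1.05, 0.92 and 1.14 in transgenic samples, a difference of -0.17 ± 0.12 with overlapping groups, or -0.08 with slide as a block. Grm2, which marks Golgi cells in the cerebellar cortex, and Grm8 differed by 0.04 ± 0.10 and -0.05 ± 0.19. With slide as a block these were 0.11 and 0.14, so the sign of Grm8 turned. Grm6, the receptor of retinal ON bipolar cells, was the untested gene. None of the 6 arrays showed any of its 3 probes well above background.

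The vesicular transporters gave the member with the smallest p. Slc17a6 loads glutamate in brainstem neurons and climbing fibres. Its levels were 2.42, 2.22 and 2.23 in wild type and 2.16, 2.13 and 2.49 in transgenic samples, which overlapped, with a difference of -0.03 ± 0.13, or 0.03 with slide as a block. Slc17a8 is found in serotonergic, cholinergic and other neurons not classed as glutamatergic. Levels of Slc17a8 were -1.24, -0.69 and -0.83 in wild type and -0.66, -0.63 and -0.52 in transgenic samples. All transgenic samples were above all wild-type samples, the nearest by 0.03, and the lowest value was again that of slide 1. The difference was 0.31 ± 0.16 (limma adjusted p = 0.817, 95% interval -0.07 to 0.70), and 0.15 with slide as a block.

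The postsynaptic scaffolds had 3 genes above and 1 below 0, a median difference of 0.067 and 0 calls. Blocking on slide gave 2 above and 2 below 0 and a median of -0.0002. Dlg4 anchors NMDA and AMPA receptors through its PDZ domains. Its levels were 2.23, 2.24 and 2.39 in wild type and 2.33, 2.43 and 2.43 in transgenic samples, and the difference was 0.11 ± 0.09, or 0.08 with slide as a block. The groups overlapped through wild-type replicate 3. Homer1 links metabotropic receptors to Shank proteins and internal calcium stores. Its levels were 0.60, 0.96 and 1.05 in wild type and 1.01, 0.98 and 0.88 in transgenic samples. Without the low array of slide 1 the sign turned, from 0.09 ± 0.14 to -0.05. Shank1 and Shank2 connect Dlg4-bound complexes to Homer1 and the cytoskeleton. Shank1 differed by -0.03 ± 0.10, or 0.05 with slide as a block. Shank2 had levels of -0.89, 0.07 and 0.01 in wild type and -0.20, -0.01 and -0.45 in transgenic samples, and its difference of 0.05 ± 0.29 became -0.26 with slide as a block, where limma gave an unadjusted p of 0.128.

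Single probes gave the same picture. Of the 75 probes, 64 could be tested, 61 of them well above background on all 6 arrays and 3 on 5. Another 10 probes were well above background on no array, and 1 Grm7 probe was so on 2. limma called 0 of 64 probes, where it called 0.0286% of all 38463 tested probes. Differences were below 0 at 38 and above 0 at 26, against 51.9% below 0 among all tested probes, with a median of -0.045 against -0.008. With slide as a block the median of the member probes was -0.016. Groups did not overlap at 7 of 64 probes, against 13.9% of all tested probes. Of the 19 genes with at least 2 tested probes, 11 had probes of opposite sign. Among probes well above background on all 6 arrays this held for 10 of 18 genes, and with slide as a block for 8 of 19.

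One member probe passed an unadjusted p of 0.05 in limma, against 5.59% of all tested probes. It was the SAM probe of Shank2 printed above. Its levels were -4.84, -4.85 and -4.90 in wild type and -5.26, -5.14 and -5.18 in transgenic samples. These signals are near background, which limits what can be read from this probe. All transgenic samples were lower, and the difference was -0.33 ± 0.08 (limma adjusted p = 0.615), with an unadjusted p of 0.0080. With slide as a block its difference was -0.31 (adjusted p = 0.441), and it was again the 1 member probe at an unadjusted p under 0.05, against 8.27% of all tested probes. The next Shank2 probe 3′ of it also had separated groups, with levels of -0.95, -0.96 and -0.85 in wild type and -1.02, -1.10 and -1.15 in transgenic samples, a difference of -0.17 ± 0.09. The most 3′ Shank2 probe, which has the highest signal and represents the gene above, is the one at which wild-type replicate 1 lay 0.92 below the other wild-type samples. At the SAM probe that sample lay 0.04 above them. On slide 2 alone all 3 probes were below 0, at -0.31, -0.18 and -0.26.

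The files assign the 4 Homer1 probes to different transcripts. The EVH1 probe differed by -0.04 ± 0.17, the next probe 3′ by 0.09 ± 0.19, the probe that the files assign to transcript variant d by -0.10 ± 0.11 and that for transcript variant L, which represents the gene above, by 0.09 ± 0.14. None of the 4 separated the genotypes. The PDZ and SH3 probes of Dlg4 differed by -0.19 ± 0.27 and -0.02 ± 0.16, and the most 3′ Dlg4 probe by 0.11 ± 0.09. Wild-type replicate 1 lay 0.89 above the other wild-type samples at the PDZ probe, 0.44 above at the SH3 probe and 0.09 below at the 3′ probe. On slide 2 alone the 3 Dlg4 probes differed by 0.10, 0.13 and 0.08.

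The other printed probes likewise did not separate the genotypes. The ligand-binding probe of Gria1 differed by -0.05 ± 0.15 and the 3′ probe that represents the gene by -0.03 ± 0.09. The junction probe of Grik1 had levels of 0.41, 0.17 and 0.12 in wild type and 0.06, -0.01 and 0.17 in transgenic samples, a difference of -0.16 ± 0.11. Here the array on slide 1 was the highest of 6, whereas at the Grik1 probe that represents the gene it was the lowest. The 2 tested Grm8 probes share 27 bases and are not independent readings.

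Across the 19 genes with several tested probes, the deviation of wild-type replicate 1 from the other wild-type samples changed in both directions along the gene. It was lower at the most 3′ than at the most 5′ probe in 10 genes and higher in 9, with medians of 0.183 at the 5′ and -0.032 at the 3′ probes. The largest changes from the 5′ to the 3′ probe were falls. They were -1.20 in Gria4 (from 0.20 to -1.01), -0.98 in Dlg4, -0.96 in Shank2, -0.87 in Homer1 and -0.77 in Grik1. The largest rise was 0.70, in Grin2a (from -0.31 to 0.38). Some pairs lay close together, such as those of Grin2c at 0.188 kb. Any dependence on probe position was not tested. The median absolute deviation of that sample over member probes was 0.237, against 0.110 between the other wild-type samples. With 1 array on slide 1, the sample and its slide cannot be told apart.

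**Figure D3:**
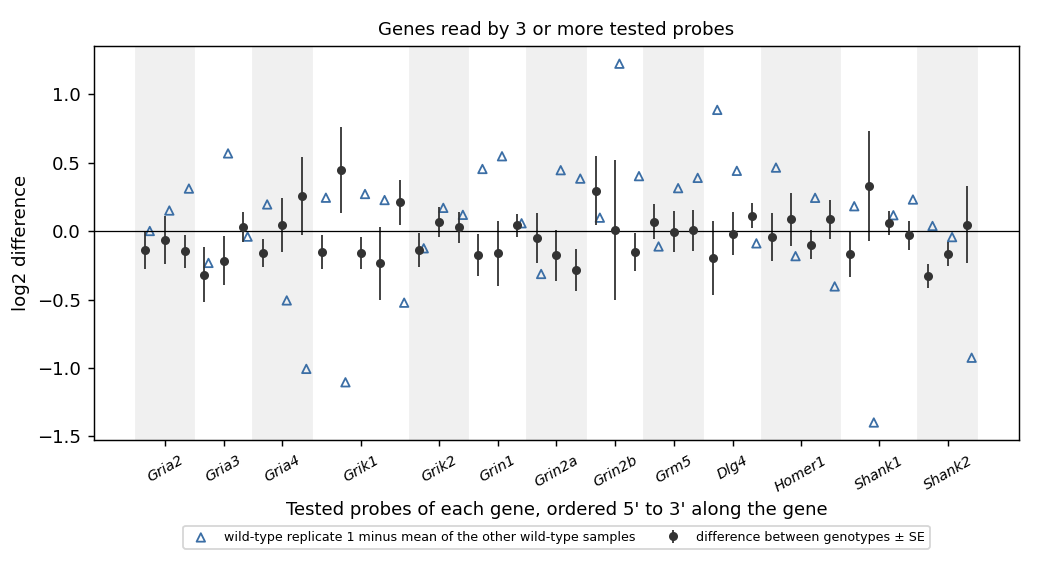
For the member genes with 3 or more tested probes, probes are ordered 5′ to 3′ within each gene; circles with bars are the log2 difference between genotypes ± SE, and triangles are wild-type replicate 1 minus the mean of the other wild-type samples. The triangles range from -1.40 (a Shank1 probe) to 1.22 (a Grin2b probe), and at the most negative triangles of Gria4, Grik1, Shank1 and Shank2 the circle lies above 0. The Grin2b probe at 1.22 is near background and was well above it on only 2 of the 3 wild-type arrays.

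Other genes of the glutamatergic synapse gave the same result. The list held 54 genes for auxiliary subunits, further receptors and scaffolds, synaptic adhesion proteins, glutamate uptake and glutamine metabolism. All 54 were tested, limma called 0 and put 0 under an unadjusted p of 0.05, 24 lay above and 30 below 0, and the median difference was -0.032. Slide as a block gave 30 above and 24 below 0 and a median of 0.012. In that fit limma called 0 and put 1 of 54 at an unadjusted p under 0.05, where 8.80% of all tested genes passed. Groups did not overlap for 7 of 54, against 14.9% of all tested genes, with transgenic samples higher for 1 and lower for 6. The smallest p was that of Grip2, which encodes a PDZ protein that binds AMPA receptors. Its levels were -3.11, -3.27 and -2.89 in wild type and -2.95, -2.56 and -2.68 in transgenic samples, a difference of 0.36 ± 0.15 (limma adjusted p = 0.817) with overlapping groups. Cbln1, the granule cell cerebellin that bridges parallel fibres to delta receptors, had levels of 6.30, 6.35 and 6.39 in wild type and 6.28, 6.12 and 5.97 in transgenic samples, a difference of -0.23 ± 0.10. Glud1, glutamate dehydrogenase, differed by -0.20 ± 0.10. The glutamate transporter Slc1a2 differed by -0.23 ± 0.12, the glutamine transporter Slc38a1 by -0.21 ± 0.11 and the adhesion protein Lrrtm3 by -0.16 ± 0.08. In these last 5 genes all transgenic samples were below all wild-type samples, and each had an adjusted p of 0.817.

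Marker lists for the tissue and its cells were read in the same fit. The lists were chosen with earlier results of these data known, so they are not an independent readout. All 6 markers each of granule cells, Purkinje cells and brainstem or spinal neurons were tested, and 0 were called, with median differences of -0.124, -0.149 and -0.300. In the last list Hoxb8 ranged from -6.84 to 0.39 over the samples, a difference of -2.74 ± 1.58. Of 6 forebrain markers 5 were tested and 0 were called, with 3 above and 2 below 0 and a median of 0.119. Pan-neuronal markers had a median of -0.123, with 2 genes above and 4 below 0. They ranged from Snap25 at -0.28 ± 0.09 (limma adjusted p = 0.716) to Map2 at 0.15 ± 0.09. Oligodendrocyte markers were lower in all 6 genes (median -0.428), and limma called 1, Klk6, at -2.06 ± 0.12 (adjusted p = 0.0159). In every sample the median deviation of that list from its mean over all samples was 0.177 to 0.301 in wild type and -0.266 to -0.205 in transgenic samples. The same measure over the glutamate receptor and scaffold genes was -0.009 to 0.014 in wild type and -0.026 to 0.008 in transgenic samples. Medians were 0.277 for microglia, 0.070 for astrocytes, -0.030 for oligodendrocyte precursors and 0.303 for activity-regulated immediate early genes, with 0 called in each. Each of these lists held genes on both sides of 0. There were 5 above and 1 below for microglia, 3 and 3 for astrocytes, 2 and 4 for precursors and 7 and 1 for immediate early genes. With slide as a block the medians were -0.152 for granule cells, -0.139 for Purkinje cells, -0.328 for brainstem or spinal neurons, 0.166 for forebrain markers and -0.081 for pan-neuronal markers. They were -0.497 for oligodendrocytes, 0.030 for oligodendrocyte precursors, 0.255 for microglia, 0.037 for astrocytes and 0.286 for immediate early genes.

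**Figure D4:**
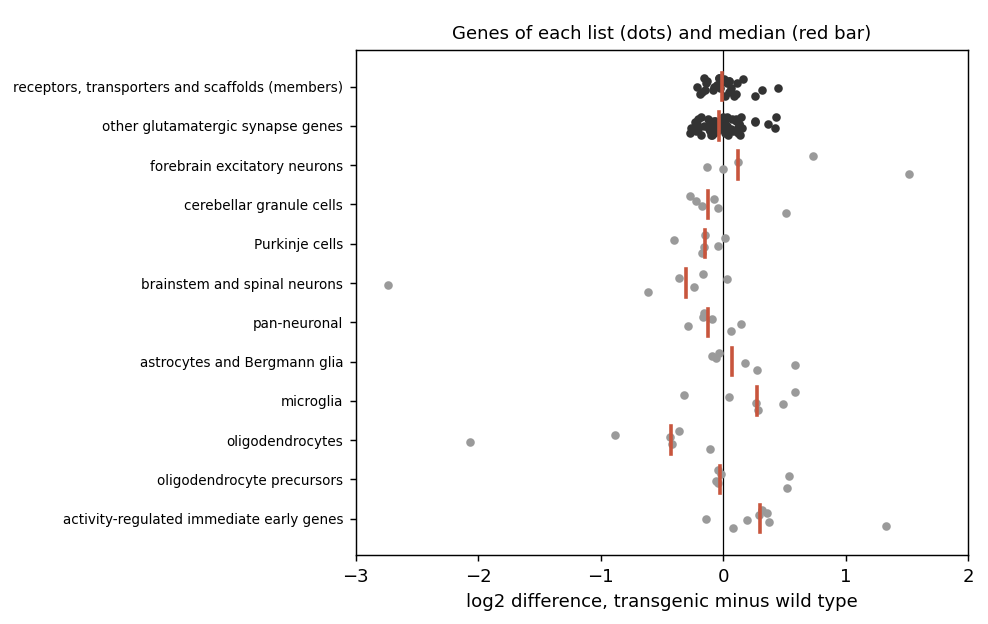
Each dot is 1 tested gene and each red bar the median of its list; the horizontal axis is the log2 difference, transgenic minus wild type. Member genes lie between -0.21 and 0.45 around a median of -0.011, and oligodendrocyte markers all lie below 0.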

How the data were processed

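The 6 scanner files hold intensity values deposited by the authors, background-subtracted by Agilent Feature Extraction 10.7.1.1 (build mm9), per the file headers; the submitters' processing notes give 9.5.1.1. Outlier-flagged spots (39 to 84 per array) were dropped, no spot was saturated, spots of a probe were averaged, and the log2 signal was taken minus that of the array's 75th percentile. Names came from RefSeq's gene table (GRCm38.p6), by accession for 32994 of 56605 probes, by symbol for 10224 and by synonym for 518, and the others kept the files' name. The 2 probes that this table pairs with Grik2 under another file name were not members. The test was lmFit and eBayes of limma 3.58.1 in R 4.3.3, checked on simulated data. The number of arrays limits the precision.

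The authors' deposited value table of intensity values has a median of 59.9 in every column on a linear scale without centring. In every column at least 99.94% of values lay within 0.01 log2 of the scanner signals after quantile normalization, and the table served as an alternative. Members and gene lists were chosen with earlier results of these data known. The rule for named genes took 7 set genes, the 10 members with the smallest p, members with probes of opposite sign of which 1 passed an unadjusted p of 0.05, and the 6 genes of the other glutamatergic list with the smallest p; other genes named were chosen after their values were seen. Alternatives covered background correction (normexp, offset 50), scaling, the dim-probe filter, slide as a block, the variance model, the probe chosen and leaving out each sample. Of the forebrain markers, 1 is not reported here by name.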

Additional observations from a re-analysis of the deposited data

How the results depend on the processing

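In all 17 settings limma called 0 member genes and 0 of the other glutamatergic genes. Members had adjusted p-values of 0.537 and above, with 0 or 1 genes at an unadjusted p under 0.05. For the other glutamatergic genes that count was 0 to 2. An adjusted p under 0.1 added none. The median member difference, -0.011, was 0.010 after quantile normalization and in the authors' value table, 0.0077 without the dim-probe filter (29 genes), -0.032 when a gene's probes were averaged and -0.055 after scaling to the array median. It ranged from -0.016 to 0.015 when 1 sample was left out. The SD of the members' median level between samples of a genotype was 0.015. None of 256 alternative values of the 16 members taken by the rule for named genes was called. Among these 16, signs turned with averaged probes for Dlg4 (-0.034), Grin1 (-0.10), Grin2b (0.050) and Shank2 (-0.15), after scaling to the array median for Grin1 (-0.00070) and Grm5 (-0.037), with array weights for Homer1 (-0.014) and Shank2 (-0.18), and with slide as a block for Homer1 (-0.049), Shank2 (-0.26) and Slc17a6 (0.033). With 1 sample left out, Grm5 ranged from -0.083 to 0.14, Homer1 from -0.049 to 0.17, Shank2 from -0.26 to 0.22 and Slc17a6 from -0.15 to 0.035. The cause was not tested. Leaving out wild-type replicate 1 gives the value with slide as a block. No paired analysis was possible because the labels give no shared replicate numbers. Title numbers run consecutively across the genotypes, but the labels do not say that neighbours are related, so they were not used as pairs. Probes near background limit what can be read of single transcripts. Among them are the SAM probe of Shank2 and the dimmer Grin2b probes. Those Grin2b probes, each well above background on only 2 wild-type arrays, enter the averaged Grin2b value of 0.050.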
